A study of Rattus norvegicus with 48 samples.

Results

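miR-210 (rno-miR-210 in the deposited table) is 1 of the 143 miRNAs measured in the livers of 48 rats, and it was chosen by its difference between ethanol-fed and carbohydrate-fed animals, seen in earlier results of these data. The differences between diets, and the changes over time within a diet that rest on them, are therefore given as descriptions without a test. Tests were made only for changes over time and with treatment averaged over both diets, which do not use the difference between diets.

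All animals were male Sprague-Dawley rats, 8 to 14 weeks old, pair-fed a liquid diet for 6 to 8 weeks in which 36% of calories came from ethanol (EtOH) or from maltose-dextran carbohydrate (CHO). Regeneration was set off by partial hepatectomy (PHx) of 70% of the liver, a surgery that removes the left lateral and medial lobes and leaves the remnant to regrow. Untreated rats of each diet were sampled at 0, 6, 24, and 72 h. Rats given AM21, a locked nucleic acid oligonucleotide antisense to miR-21, or saline as its control were sampled at 0 and 24 h. AM21 was injected at 7.5 mg/kg 72 h before surgery and again right after it. Rats at 0 h had no PHx, and whether they received the second injection is not stated. Comparisons of treatment over 0 and 24 h thus join rats with and without surgery. These 16 groups held 3 samples each, which the study describes as animals or biological replicates. Whether samples at 0 and 24 h came from different animals is not stated, and each sample is counted here as a rat. The labels place rats at 0 and 24 h in numbered sets 1 to 3 and rats at 6 and 72 h in set 4, without saying what a set is.

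miR-210 is best known as the miRNA that hypoxia-inducible factor (HIF) induces when cells run short of oxygen, and its known targets include the iron-sulfur cluster scaffold ISCU, a protein on which iron-sulfur clusters are assembled. Ethanol oxidation uses oxygen in the liver, and the region around the central vein is the most poorly oxygenated part of the lobule. Whole liver RNA was measured, so fewer cells of a type and less RNA per cell cannot be told apart.

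The sequences of the miR-210 locus are shown as background, and the sequence of the probe is not given in the sources used here. In the RefSeq annotation of GRCr8 the precursor lies on the minus strand of chromosome 1, at chr1:205755923-205756032, within the long noncoding RNA gene LOC102553043 (chr1:205754978-205763340). Its 110 bases are given 5′ to 3′ with the 3p arm, the mature strand that usually accumulates, in capitals:
miR-210 precursor: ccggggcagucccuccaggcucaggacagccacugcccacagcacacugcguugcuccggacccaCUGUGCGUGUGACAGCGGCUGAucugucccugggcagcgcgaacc
The mature arms and the miRNA annotated on the opposite strand follow, with the seed, bases 2 to 8, in capitals:
miR-210-3p: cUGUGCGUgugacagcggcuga
miR-210-5p: aGCCACUGcccacagcacacug
miR-3574: uCAGCCGCugucacacgcacag
The 3p arm (chr1:205755946-205755967) takes bases 66 to 87 of the precursor and the 5p arm (chr1:205755984-205756005) bases 28 to 49. miR-3574 occupies the coordinates of the 3p arm on the plus strand and is its exact reverse complement. The seed of miR-210-3p was carried by 1 of the 724 mature rat entries in the table, miR-210-3p itself, so miR-210 has no seed family among them. The row of the deposited table names miR-210 without an arm.

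In the NanoString nCounter assay, molecules are counted directly through a colour-coded probe for each miRNA, with no amplification step. The authors deposited log2 CPM, from which whole counts were recovered. It is the log2 of a miRNA's count scaled to a library total that was adjusted by a factor, the trimmed mean of M values (TMM). Total counts per rat ran from 58168 to 267582 with a median of 160078. miR-210 had 42 to 184 counts per rat with a median of 107.5, or 0.0414% to 0.105% of a rat's total. Counting error alone corresponds to an SD of 0.22 on the log2 scale at 42 counts and of 0.14 at the median count. The SD between rats of a group was 0.29 for miR-210 and 0.29 for the median miRNA, so that miR-210 ranked 74 of 143 from the least variable. As a check of the treatment, miR-21 was lower by 7.15 on the log2 scale in AM21 rats than in untreated and saline rats (SE 0.24, limma adjusted p = 1.31e-21). miR-21 was also lower in saline than in untreated rats (log2 difference -1.10, SE 0.28, limma adjusted p = 0.0407), a call that held in 5 of 24 fits that left out a rat and in 8 of 9 other settings, and at 0 h the saline EtOH rats differed from the saline CHO rats by -1.89 in miR-21.

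At 0 h miR-210 was higher in the livers of untreated EtOH rats than in those of CHO rats, at the baseline of the time course. The 3 CHO rats had 8.69, 9.39 and 8.62 log2 CPM, from 54, 42 and 58 counts. The 3 EtOH rats had 9.996, 10.03 and 9.64 log2 CPM, from 153, 91 and 163 counts. Each EtOH rat was above each CHO rat, and the means differed by 0.99 on the log2 scale (SE 0.27), a 1.99-fold higher level in EtOH rats. This was the first of 143 miRNAs when ranked by the difference, and 6.99% of the 143 miRNAs had all EtOH rats above all CHO rats in this comparison. The CHO rat at 9.39 was the shallowest of the series, with 58168 counts in total, and its 42 miR-210 counts have an exact Poisson interval of 30.3 to 56.8. The difference was 1.24 without it. Between rats of the same number, which deviated together here over all miRNAs, the differences were 1.31, 0.64 and 1.02, with an SE of 0.19 for their mean. The Poisson intervals, here and below, cover counting error only, and the SEs come from the spread between rats.

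The difference was smaller at the later times in untreated rats, and its direction was the same. At 6 h the CHO rats had 9.32, 9.19 and 9.61 log2 CPM and the EtOH rats 9.74, 10.07 and 9.67. All EtOH rats were above all CHO rats, as for 4.9% of miRNAs, and the means differed by 0.45 (SE 0.18, 1.37-fold). At 24 h the CHO rats had 8.91, 9.29 and 9.29 log2 CPM and the EtOH rats 9.32, 9.69 and 9.38. All EtOH rats were again above all CHO rats, as for 12.6% of miRNAs, although the lowest EtOH rat and the highest CHO rat were only 0.03 apart, and the means differed by 0.30 (SE 0.17, 1.23-fold). The difference was 0.17 without CHO replicate 1 and 0.19 without EtOH replicate 2.

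At 72 h the diets were closest. The CHO rats had 9.36, 9.47 and 9.46 log2 CPM and the EtOH rats 9.46, 9.69 and 9.61. The lowest EtOH rat lay just under the highest CHO rat, so the groups overlapped, in a comparison where 12.6% of miRNAs had all EtOH rats above all CHO rats. The means differed by 0.15 (SE 0.07, 1.11-fold).

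**Figure D1:**
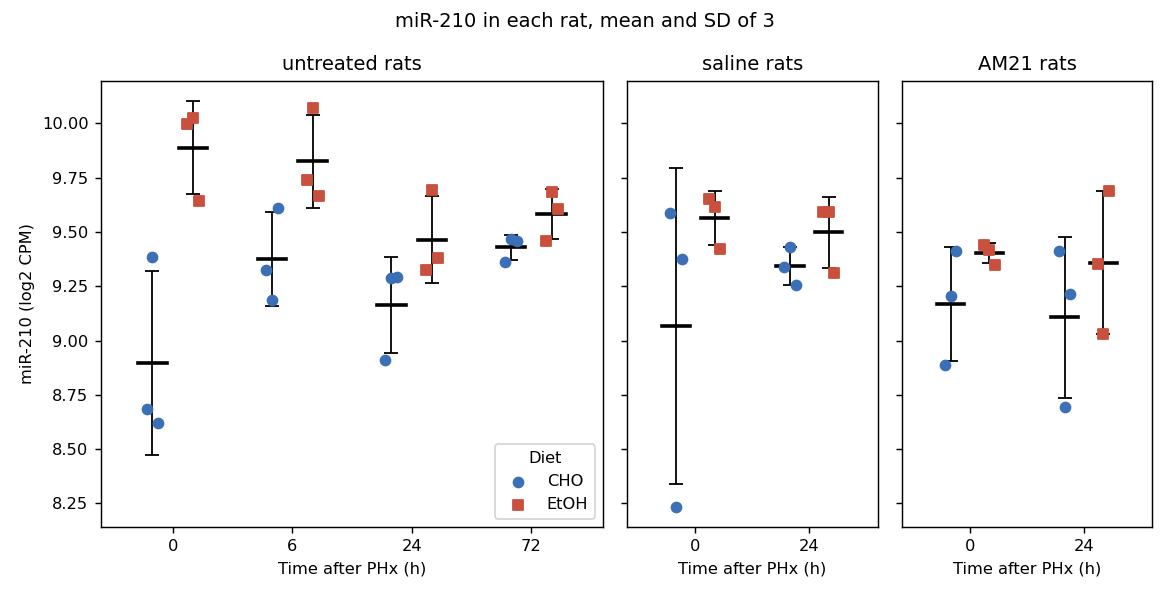
miR-210 level (log2 CPM) in each of the 48 rats, by hours after PHx on the horizontal axis and by treatment in the panels, with circles for CHO rats and squares for EtOH rats. Black bars give the mean and SD of 3 rats. The EtOH mean is the higher of the pair at each of the 8 combinations of time and treatment, and the gap is widest in untreated rats at 0 h.

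In rats that had been injected, the EtOH mean was again the higher, but the diets overlapped. At 0 h the saline CHO rats had 9.59, 8.24 and 9.38 log2 CPM and the saline EtOH rats 9.65, 9.62 and 9.42. The means differed by 0.50 (SE 0.43), and most of this came from the CHO rat at 8.24, the lowest miR-210 level of the series (54 counts, exact Poisson interval 40.6 to 70.5). Without that rat, CHO replicate 2, the difference was 0.08, and without CHO replicate 1 it was 0.76. At 24 h the saline CHO rats had 9.34, 9.43 and 9.26 log2 CPM and the saline EtOH rats 9.59, 9.59 and 9.31, a difference of 0.16 (SE 0.11) that was 0.25 without EtOH replicate 3. Between rats of the same number the differences were 0.25, 0.16 and 0.05, with an SE of 0.06 for their mean. All EtOH rats were above all CHO rats for 9.09% of miRNAs at 0 h and for 7.69% at 24 h with saline, and miR-210 was not among them.

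The AM21 rats gave differences of similar size. At 0 h the CHO rats had 8.89, 9.20 and 9.41 log2 CPM and the EtOH rats 9.44, 9.42 and 9.35, a difference of 0.23 (SE 0.15). Here the EtOH rats lay within 0.09 of each other and the CHO rats were spread, and the difference was 0.09 without CHO replicate 1 and 0.36 without CHO replicate 3. At 24 h the CHO rats had 9.41, 8.69 and 9.21 log2 CPM and the EtOH rats 9.35, 9.03 and 9.69. The difference of 0.25 was smaller than its SE of 0.29, and it ran from 0.04 without CHO replicate 2 to 0.41 without EtOH replicate 2. All EtOH rats were above all CHO rats for 9.79% of miRNAs at 0 h and for 8.39% at 24 h with AM21.

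The EtOH mean of miR-210 was thus higher in 8 of 8 combinations of time and treatment, by 0.15 to 0.99 on the log2 scale, and the groups did not overlap in 3 of the 8. In a combination 4.9% to 12.6% of all miRNAs had all EtOH rats above all CHO rats. The share of miRNAs with 3 or more such combinations was not counted. Among others, miR-103 also had 3 and miR-152 had 4. The mean of the 8 differences of miR-210 was 0.38, against -0.02 for the median miRNA, and the mean of the 7 outside untreated rats at 0 h was 0.29. Averaged over the 3 treatments the difference was 0.57 at 0 h and 0.24 at 24 h. In all, 4.9% of the miRNAs (7 of 143) had the higher mean in EtOH rats in all 8. The others were miR-152, with a mean difference of 0.51, miR-365 with 0.42, miR-151 with 0.30, miR-194 with 0.28, miR-30e with 0.27 and miR-192 with 0.18. In the other direction, 11 of 143 had the lower mean in EtOH rats in all 8.

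**Figure D2:**
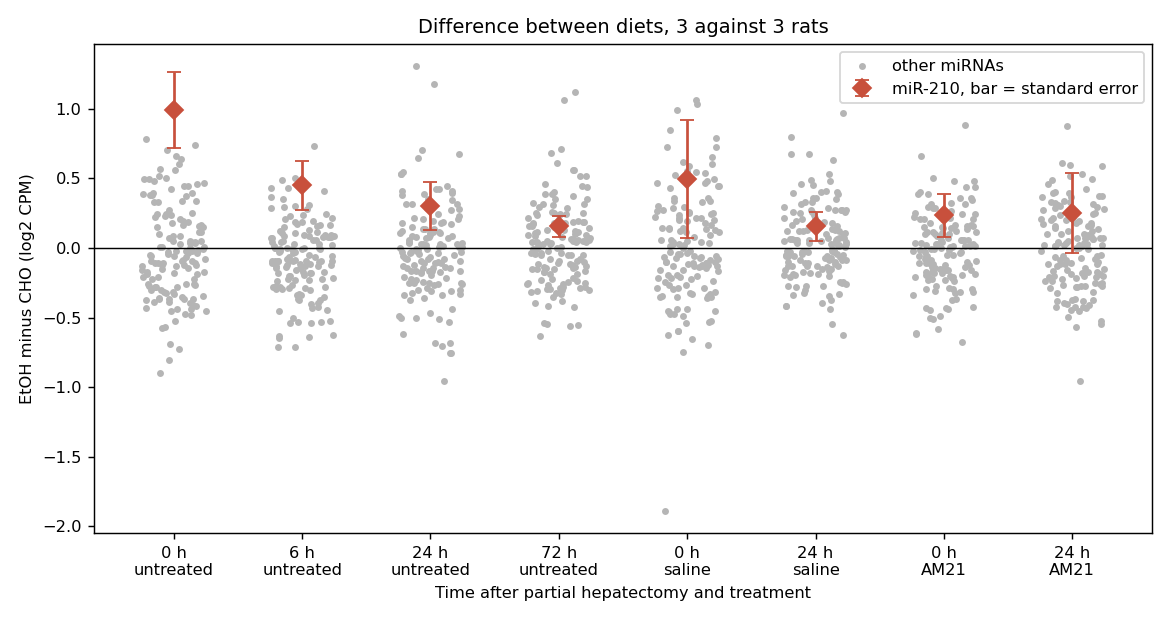
Difference between EtOH and CHO rats (difference of group means, log2 CPM) at each time and treatment, as a diamond with its standard error for miR-210 and as grey points for the other 142 miRNAs, 3 against 3 rats each. miR-210 lies above 0 in each of the 8 columns, above all other miRNAs at 0 h in untreated rats and within the cloud elsewhere.

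When the 16 groups were ordered by mean level, 7 of the 8 highest were EtOH groups. The untreated EtOH rats at 0 h came first with 9.89 ± 0.21 log2 CPM (SD, n = 3), followed by the EtOH rats at 6 h with 9.83 ± 0.21. The next were EtOH rats at 72 h with 9.58 ± 0.11, saline EtOH rats at 0 h with 9.56 ± 0.12, saline EtOH rats at 24 h with 9.50 ± 0.16, and untreated EtOH rats at 24 h with 9.47 ± 0.20. The CHO group among the 8 highest was that at 72 h, with 9.43 ± 0.06, just above AM21 EtOH rats at 0 h with 9.40 ± 0.05. The lower part of the order began with CHO rats at 6 h (9.37 ± 0.22), AM21 EtOH rats at 24 h (9.36 ± 0.33) and saline CHO rats at 24 h (9.34 ± 0.09). It ended with AM21 CHO rats at 0 h (9.17 ± 0.26), untreated CHO rats at 24 h (9.16 ± 0.22), AM21 CHO rats at 24 h (9.11 ± 0.37), saline CHO rats at 0 h (9.07 ± 0.73) and untreated CHO rats at 0 h (8.90 ± 0.42). Of the 15 steps between neighbours, 1 was larger than the pooled SD of its groups, the step of 0.24 from EtOH rats at 6 h down to EtOH rats at 72 h. The other neighbours did not differ beyond their spread. Over all times and treatments, the 24 CHO rats ran from 8.24 to 9.61 with a median of 9.31 and the 24 EtOH rats from 9.03 to 10.07 with a median of 9.60.

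Total counts were not equal between diets. EtOH rats had the higher geometric mean of total counts in 7 of 8 combinations. The ratio of EtOH to CHO rats at 0 h was 1.55 without injection, 1.45 with saline and 1.41 with AM21, and it ran from 0.965 to 1.27 in the other combinations. Among rats of a group, miR-210 was the lower in rats with more counts (r = -0.33 with log10 of the total over 48 rats with group means removed). The TMM factors of untreated rats at 0 h were 1.30, 1.09 and 1.17 in CHO rats and 1.03, 0.95 and 1.00 in EtOH rats. As a share of the unadjusted total, miR-210 in these EtOH rats still lay above that in the CHO rats. In untreated rats at 24 h the shares overlapped, up to 0.0636% in CHO rats and from 0.0567% in EtOH rats. The highest share of the series, 0.105%, was in a saline CHO rat at 0 h. The part of total count and of these factors in the difference between diets was not tested.

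Markers of liver cell types were compared in the same rats, as the log2 of their summed CPM. The hepatocyte list, miR-122, miR-192 and miR-194 (3 of 3 analysed), ran from 18.34 to 19.74 in CHO rats and from 18.98 to 19.58 in EtOH rats. It was the higher in EtOH rats in 6 of 8 combinations, by 0.42 in untreated rats at 0 h and by 0.16 on average. Within groups the sum had an r of 0.43 with miR-210 over 48 rats. The sum is mostly miR-122, with a mean count of 92508.5 against 1750 for miR-192 and 2543 for miR-194. Within groups miR-122 had an r of 0.44, whereas miR-192 (-0.33) and miR-194 (-0.34) went the other way from miR-210. When miR-210 was expressed relative to this list, a scaling added after the values were seen, the EtOH mean was the higher in 6 of 8 combinations. In untreated rats the difference at 0 h was then 0.58 and that at 72 h was -0.0065, with 0.27 and 0.24 between them at 6 and 24 h. With saline it was 0.02 at 0 h and 0.17 at 24 h, and with AM21 it was -0.11 at 0 h and 0.59 at 24 h. The diets then did not overlap in 1 of the 8, untreated rats at 0 h, against 3 of 8 on the deposited scale. Relative to all counts but those of miR-122, also added after the values were seen, the EtOH mean was the higher in 8 of 8, by 0.11 to 0.91, but the diets overlapped in untreated rats at 0 and 24 h and stayed apart in 1 of the 8, untreated rats at 6 h.

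Within groups the other lists moved less closely with miR-210. The red blood cell list, miR-451 and miR-144 (2 of 2 analysed), was the higher in EtOH rats in 6 of 8 combinations, by 0.46 on average, and within groups it went the other way from miR-210 (r = -0.32). It ran from 8.67 to 12.54 in CHO rats and from 9.46 to 12.36 in EtOH rats. The leukocyte list (miR-142-3p, miR-150 and miR-223, 3 of 4 analysed) differed by 0.06 on average, the endothelial miR-126 (1 of 1) by 0.03, and the mesenchymal list (4 of 5 analysed) by -0.09, with r of 0.02, -0.34 and -0.12 within groups. The leukocyte list ran from 10.97 to 12.02 in CHO rats and from 11.05 to 11.71 in EtOH rats, miR-126 from 13.98 to 15.47 and from 13.68 to 15.50, and the mesenchymal list from 13.68 to 14.92 and from 13.65 to 14.88. Over the 16 group means the leukocyte list had an r of 0.39 with miR-210, beside 0.47 for the hepatocyte list. The leukocyte members did not go one way between diets. miR-142-3p had the higher mean in EtOH rats in 7 of 8 combinations, by 0.31 on average. miR-223 had the higher mean in 5 of 8, with a mean difference of -0.04, and miR-150 in 0 of 8, with -0.15. No analysed marker was at 0 in any rat. The part of these markers in the miR-210 difference was not tested.

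The question whether miR-210 changes as the liver regenerates was tested with both diets given equal weight. None of the time comparisons called miR-210. In simulated data a log2 change of 0.3 at 6 h was called for 5.4% of the changed miRNAs, and a change of 0.5 for 48.5%. Changes of this size can thus go uncalled. In untreated rats the 6 rats at 0 h ran from 8.62 to 10.03 log2 CPM and the 6 rats at 6 h from 9.19 to 10.07. The mean was higher by 0.21 at 6 h (SE 0.14, 95% interval -0.08 to 0.49, limma adjusted p = 0.224), in a comparison that called 24.5% of miRNAs. This result rests on the shallowest rat, untreated CHO replicate 2 at 0 h. Without it the increase was 0.33 and passed the threshold (limma adjusted p = 0.0348), with 69 instead of 35 of 143 miRNAs called.

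At 24 h the 6 untreated rats ran from 8.91 to 9.69, and the mean differed from that at 0 h by -0.08 (SE 0.14, 95% interval -0.37 to 0.21, limma adjusted p = 0.758) where 20.3% of miRNAs were called. At 72 h the 6 rats lay close together, from 9.36 to 9.69, and the mean differed from 0 h by 0.11 (SE 0.14, 95% interval -0.17 to 0.40, limma adjusted p = 0.528) where 35.7% were called. Between 6 and 72 h, within numbered set 4, the difference was -0.09 (SE 0.14, 95% interval -0.38 to 0.19, limma adjusted p = 0.628) and 46.9% of miRNAs were called. A change at 6 or 72 h against 0 h cannot be told apart from a difference between the numbered sets.

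With untreated, saline and AM21 rats together, 18 rats at 24 h ran from 8.69 to 9.69 and 18 rats at 0 h from 8.24 to 10.03. This comparison, which shares the untreated rats with the one above, called 51.7% of miRNAs. miR-210 differed by -0.01 (SE 0.10, 95% interval -0.22 to 0.20, limma adjusted p = 0.942). A change of more than 0.22 on the log2 scale in either direction lay outside that interval.

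Treatment was not followed by a called change in miR-210 either. The 12 AM21 rats ran from 8.69 to 9.69 and the 24 untreated and saline rats from 8.24 to 10.03, with a difference of -0.10 (SE 0.11, 95% interval -0.33 to 0.12, limma adjusted p = 0.586), where 5.59% of miRNAs were called. Saline and untreated rats, 12 each, differed by 0.01 (SE 0.13, 95% interval -0.24 to 0.27, limma adjusted p = 0.971), where 1.4% were called. The change from 0 to 24 h was lower by 0.07 in AM21 rats than in the other rats (-0.07, SE 0.22, 95% interval -0.51 to 0.38, limma adjusted p = 0.998). In that comparison limma called 0 of 143 miRNAs (0.0%) and also 0 with voom weights, and 4 had an unadjusted p under 0.05.

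**Figure D3:**
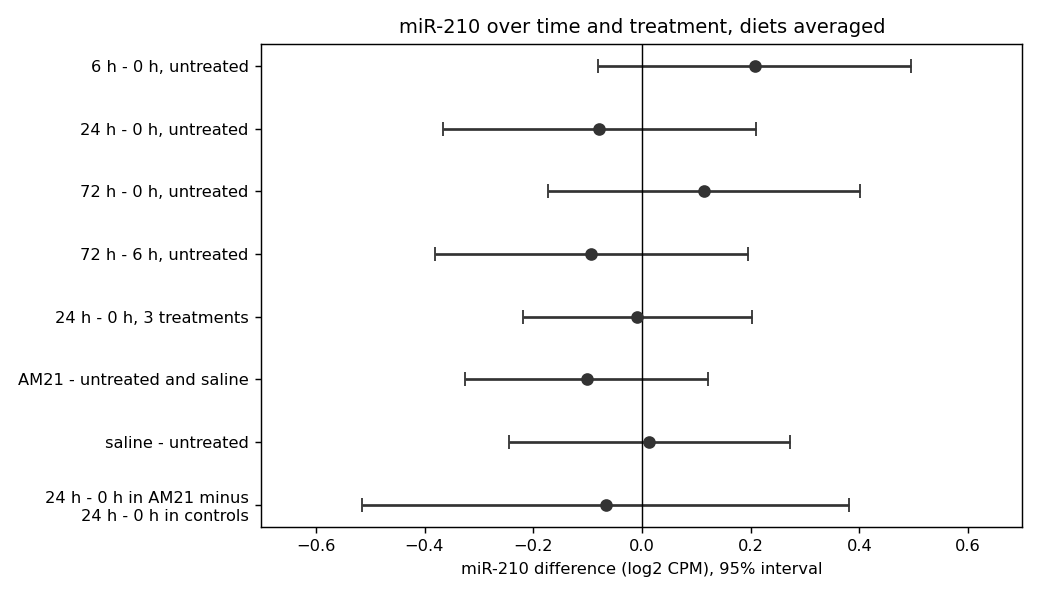
Differences in miR-210 (log2 CPM) over time and between treatments, both diets weighted equally, as points with 95% intervals from limma. The intervals of all 8 comparisons include 0, from the increase of 0.21 at 6 h to the decrease of 0.10 with AM21.

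Split by diet, the course over time ran in opposite directions in untreated rats, and this is a description because it uses the 0 h values by which miR-210 was chosen. In CHO rats the mean was above its 0 h value by 0.48 at 6 h (SE 0.28), 0.27 at 24 h (SE 0.28) and 0.53 at 72 h (SE 0.25). In EtOH rats it differed from its 0 h value by -0.06 (SE 0.17), -0.42 (SE 0.17) and -0.30 (SE 0.14). No later group lay fully apart from the 0 h group of its diet. From 0 to 24 h the means differed by 0.28 in CHO rats and -0.06 in EtOH rats with saline, and by -0.06 and -0.04 with AM21.

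The miRNAs whose group means ran most like those of miR-210 were described by Pearson's r over the 16 groups, which share libraries and normalization and differ by diet. The highest were miR-342-3p (r = 0.71), miR-151 (0.67), miR-103 (0.67), let-7d (0.63) and miR-365 (0.63). The mean of miR-342-3p was the higher in EtOH rats in 7 of 8 combinations, by 0.33 on average. The sequence of the most alike is shown beside that of miR-210-3p, with both seeds in capitals, and the seeds differ:
miR-210-3p: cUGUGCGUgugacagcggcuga
miR-342-3p: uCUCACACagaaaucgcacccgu
The lowest were miR-582 (r = -0.81), miR-532-5p (-0.76) and miR-455 (-0.66), each with the lower mean in EtOH rats in 8 of 8 combinations, by 0.46, 0.18 and 0.52 on average (mean differences of -0.46, -0.18 and -0.52). The median r of the 142 other miRNAs was -0.01.

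**Figure D4:**
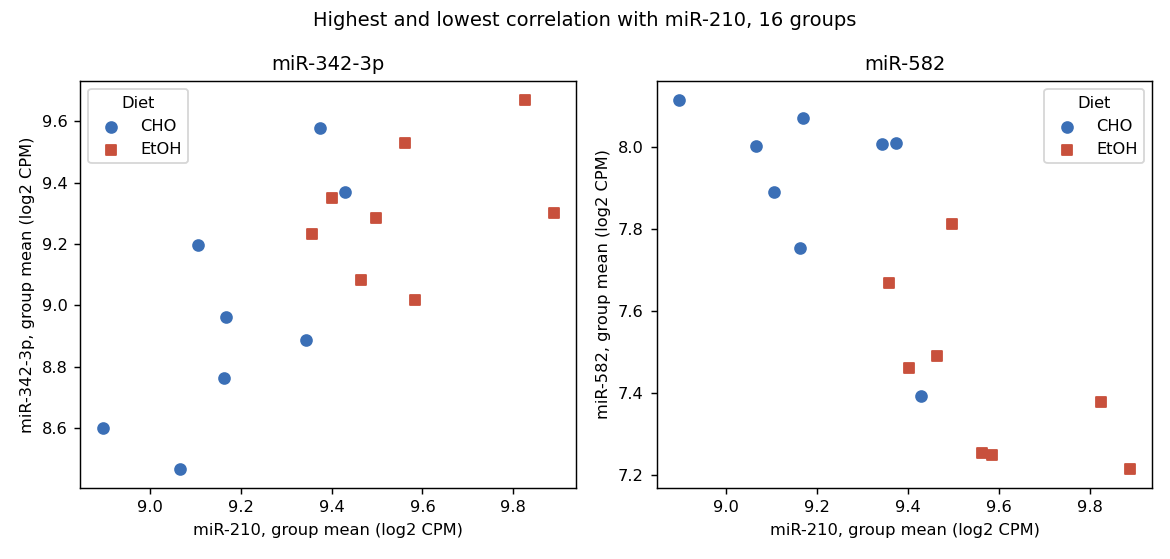
Group means (log2 CPM) of miR-342-3p and miR-582, the miRNAs with the highest and the lowest r, against those of miR-210 in the 16 groups, with circles for CHO and squares for EtOH groups. miR-342-3p goes up with miR-210 (r = 0.71) and miR-582 goes down (r = -0.81), and EtOH groups lie to the right in both panels.

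Within groups the order was another. With group means removed, over 48 rats, the highest were miR-30b-3p (r = 0.53), miR-3596c (0.49), the hepatocyte miRNA miR-122 (0.44), miR-185 (0.43) and miR-34c (0.43). The lowest were miR-26a (-0.47), miR-30b-5p (-0.45) and miR-107 (-0.44). miR-342-3p had an r of 0.33 there and miR-582 of 0.00. With the total count removed as well, r was 0.45 for miR-30b-3p, 0.39 for miR-3596c, 0.45 for miR-122, 0.50 for miR-185 and 0.31 for miR-34c.

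Other miRNAs reported as induced by low oxygen in cultured cells were looked at beside miR-210, and 11 of the 12 on this list were analysed here. None of them was called higher at any time, and several were called lower. At 24 h over the 3 treatments 7 of 11 fell and 0 rose, where 22.4% of all miRNAs fell and 29.4% rose, with a list median of -0.29 against 0.05 over all miRNAs. miR-27b fell by 0.50 (SE 0.06, limma adjusted p = 1.23e-07) and miR-23b fell by 0.49 (SE 0.07, limma adjusted p = 3.39e-06). miR-181a fell by 0.50, miR-181c by 0.52, miR-26a by 0.42, miR-23a by 0.29 and miR-27a by 0.29. Of these 7, miR-23a and miR-23b, miR-27a and miR-27b, and miR-181a and miR-181c are pairs from the same families. Members of a family need not move separately, so the counts of this list, here and below, are not counts of separate results. The members not called were miR-24 with 0.11, miR-107 with -0.08, miR-103 with -0.15 and miR-26b with -0.17.

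In untreated rats 2 of 11 fell at 6 h (miR-27a by 0.35 and miR-27b by 0.40), 5 of 11 at 24 h and 4 of 11 at 72 h, with list medians of -0.27, -0.32 and -0.37 against 0.07, 0.04 and 0.03 over all miRNAs. Of all miRNAs 15.4%, 12.6% and 17.5% fell at these times, so the count at 6 h was near the background. The 5 at 24 h were miR-181c (fell by 0.76), miR-181a (by 0.60), miR-27b (by 0.53), miR-23b (by 0.45) and miR-27a (by 0.32). The 4 at 72 h were miR-181a (fell by 0.90), miR-23b (by 0.85), miR-27b (by 0.50) and miR-27a (by 0.43). From 6 to 72 h, 2 of 11 were called lower, of which miR-181a fell by 1.25 and miR-23b fell by 0.56, where 22.4% of all miRNAs fell. Between AM21 and the other rats, and between saline and untreated rats, 0 of 11 were called. Only 5.59% and 1.4% of all miRNAs were called there, so these counts were near the background.

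**Figure D5:**
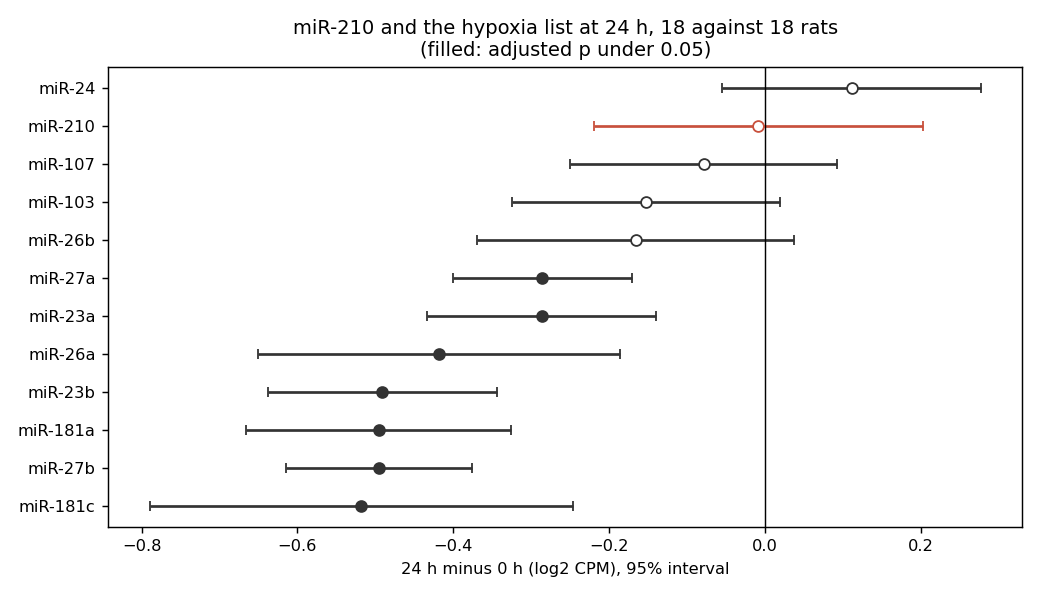
Change from 0 to 24 h (log2 CPM, with 95% intervals from limma) of miR-210 and the 11 miRNAs analysed of the hypoxia list, 18 against 18 rats over 3 treatments and both diets. Filled points passed an adjusted p under 0.05, and these 7 members all lie below 0, whereas miR-210 lies at -0.01.

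Between diets the list did not go one way. Its members with the higher mean in EtOH rats were 5 of 11 at each time in untreated rats, 3 and 4 of 11 with saline at 0 and 24 h, and 5 and 9 of 11 with AM21. Of all 143 miRNAs, 55 to 78 had the higher mean in EtOH rats in a combination, with 76 in AM21 rats at 24 h. The list medians ran from -0.14 to 0.22, beside medians over all miRNAs of -0.09 to 0.04. The members with the higher mean in EtOH rats in 7 of 8 combinations were miR-103, by 0.35 on average, miR-107 by 0.18 and miR-24 by 0.11. miR-103 and miR-107 differ from each other by little in sequence, and their probes may share molecules, which makes their separate values uncertain.

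miRNAs reported to act on HIF-1alpha or its partners were the other side of the same pathway, and 5 rows held members of this list of 9, with miR-20a and miR-20b on a shared row. miR-17-5p, of the miR-17-92 cluster, rose by 0.84 at 24 h in untreated rats (SE 0.13, limma adjusted p = 0.000218), by 0.73 at 72 h, and by 0.62 at 24 h over the 3 treatments. miR-22 fell by 0.45 at 6 h, 0.42 at 24 h and 0.75 at 72 h in untreated rats and by 0.33 at 24 h over the 3 treatments. miR-199a-5p rose by 0.43 at 72 h and by 0.26 at 24 h over the 3 treatments, fell by 0.51 in AM21 rats against the other rats and rose by 0.34 in saline against untreated rats (limma adjusted p = 0.0407). The AM21 call held in 36 of 36 fits that left out a rat and in 8 of 8 other settings, and the saline call in 3 of 24 and in 5 of 9. The shared row of miR-20a and miR-20b rose by 0.42 at 24 h over the 3 treatments. From 6 to 72 h miR-17-5p rose by 0.63, miR-322 by 0.68 and the shared row by 0.47, and miR-22 fell by 0.30, where 24.5% of all miRNAs rose and 22.4% fell.

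In counts, 0 of these 5 rows rose and 1 fell at 6 h, 1 rose and 1 fell at 24 h, and 2 rose and 1 fell at 72 h, with medians of -0.32, 0.16 and 0.28 against 0.07, 0.04 and 0.03 over all miRNAs. Over all miRNAs 9.09%, 7.69% and 18.2% rose and 15.4%, 12.6% and 17.5% fell at these times. Over the 3 treatments at 24 h, 3 rose and 1 fell, with a median of 0.26 against 0.05, where 29.4% of all miRNAs rose and 22.4% fell. Between diets the shared row of miR-20a and miR-20b and miR-199a-5p had the lower mean in EtOH rats in 8 of 8 combinations, with mean differences of -0.22 and -0.25. miR-17-5p had the lower mean in 7 of 8, with a mean difference of -0.16, and miR-22 and miR-322 had the higher mean in 5 of 8, by 0.07 and 0.06 on average.

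The study uses a list of miRNAs raised in activated hepatic stellate cells, the collagen-producing cells of the liver, that includes miR-210. Of its 15 other members 13 were analysed here. At 24 h over the 3 treatments 7 of 13 rose and 3 fell, where 29.4% of all miRNAs rose and 22.4% fell. Those that rose were miR-21 (1.06), miR-132 (0.57), miR-221 (0.35), miR-152 (0.28), miR-31 (0.27), miR-199a-5p (0.26) and miR-143 (0.22). miR-22 fell by 0.33, miR-145 by 0.27 and let-7c by 0.20, and miR-210 was not called. In untreated rats 4 rose and 1 fell at 6 h, 2 rose and 2 fell at 24 h, and 4 rose and 2 fell at 72 h, beside 9.09%, 7.69% and 18.2% of all miRNAs that rose and 15.4%, 12.6% and 17.5% that fell. At 6 h those that rose were miR-132 (0.72), miR-125b-5p (0.67), miR-31 (0.67) and miR-145 (0.53), and miR-22 fell by 0.45. At 24 h miR-21 rose by 0.88 and miR-132 by 0.74, and miR-145 fell by 0.43 and miR-22 by 0.42. At 72 h miR-132 rose by 0.89, miR-21 by 0.86, miR-152 by 0.68 and miR-199a-5p by 0.43. miR-22 fell by 0.75 and miR-145 by 0.73 at 72 h. The list medians in untreated rats were 0.22, 0.02 and -0.02 at 6, 24 and 72 h against 0.07, 0.04 and 0.03 over all miRNAs, and the median over the 3 treatments was 0.22 against 0.05. From 6 to 72 h, 2 of 13 rose and 4 fell, where 24.5% of all miRNAs rose and 22.4% fell. miR-21 rose by 1.17 and miR-152 by 0.96. miR-145 fell by 1.26, miR-125b-5p by 1.00, let-7e by 0.50 and miR-22 by 0.30.

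Between diets this list was mixed as well. In a combination 4 to 7 of its 13 other members were higher in EtOH rats, where 55 to 78 of all 143 miRNAs were. miR-152 had the higher mean in EtOH rats in 8 of 8 combinations, by 0.29 to 0.64, and its diets did not overlap in 4. miR-31 had the higher mean in 7 of 8, by 0.21 on average. let-7b and miR-199a-5p had the lower mean in 8 of 8, with mean differences of -0.34 and -0.25.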

How the data were processed

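miRNAs in total RNA of whole liver were counted with the NanoString nCounter panel for rat. The authors scaled the counts by the trimmed mean of M values with edgeR, transformed them with voom of limma, and deposited log2 CPM for 143 miRNAs in 48 rats. Their filter is not given in the sources used here. Groups came from the labels. Counts were recovered with the voom pseudocount of 0.5, each within 5.5e-05 of a whole number (tolerance 0.001), and log2 CPM rebuilt from them lay within 9.9e-09 of the deposited ones.

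limma 3.58.1 (lmFit and eBayes, R 4.3.3) was run on the deposited log2 CPM of all 143 miRNAs with a mean for each group. Time comparisons in untreated rats used 24 rats, and those of treatment and of 24 h over 3 treatments used the 36 rats at 0 and 24 h. Benjamini-Hochberg adjustment was made within a comparison, with calls under 0.05. Differences between diets are of group means, with an SE from the SDs. The fits were tested on 100 simulated data sets per setting, with 30 of 143 miRNAs changed. At 6 h against 0 h, log2 changes of 0.3, 0.5 and 1 were called for 5.4%, 48.5% and 96.2% of changed miRNAs. At 24 h over the 3 treatments these were 58.8%, 93.8% and 100%, and for AM21 50.8%, 91.5% and 99.8%. Figures were drawn with matplotlib 3.10.9.

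The members and lists were chosen with earlier results of these data known. Named miRNAs were miR-210, those with the 5 highest and 3 lowest r with it over groups and within groups, called members of the lists, and members of lists with 8 or fewer rows. Other miRNAs were named after their values were seen. Deviations of same-numbered rats, whose numbers the labels give without saying what they mark, correlated at 0.219, 0.334 and 0.162 between 24 and 0 h in untreated rats and at 0.252, 0.437 and 0.261 over the 3 treatments. Between EtOH and CHO rats the correlations were 0.516, 0.793 and 0.654 at 0 h without injection and 0.237, 0.204 and 0.198 at 24 h with saline, and not all above 0.1 in the other combinations. Alternatives were other scalings, a pseudocount of 2, at least 50 counts in at least 3 rats (138 miRNAs), voom weights, log10 total count as a covariate, other sets of rats, a block for the replicate number, and leaving out each rat.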

Additional observations from a re-analysis of the deposited data

Results flagged for a closer look

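In untreated rats the change of miR-210 from the 0 h mean of its diet ran in opposite directions in the diets at 24 h and at 72 h. At both times all 3 CHO rats were above the CHO mean at 0 h and all 3 EtOH rats were below the EtOH mean at 0 h. The change in EtOH rats minus that in CHO rats was -0.69 on the log2 scale at 24 h and -0.84 at 72 h. Neither difference was tested. Both use the same 6 rats at 0 h, whose difference between diets was among the values by which miR-210 was chosen, and the rats at 72 h come from another numbered set. With the shallowest rat left out, the difference between diets at 0 h was 1.24 in place of 0.99.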

How the results depend on the processing

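The 8 tested values of miR-210 were recomputed under 246 alternatives. The sign turned in 26 of them, none of which was called. The call changed in 1, the comparison of 6 h with 0 h without CHO 0 h untreated replicate 2, where the adjusted p was 0.0348, within a range of 0.0348 to 0.471 over its alternatives. Leaving out 1 rat at a time moved that difference between 0.14 and 0.33. With a replicate block, the difference at 24 h in untreated rats stayed at -0.078 (adjusted p = 0.743) and that over the 3 treatments at -0.0084 (adjusted p = 0.944), and the pairing by number changed no other call of miR-210. The 8 differences between diets kept their sign under 78 alternatives. Relative to the summed hepatocyte list, chosen after seeing the data, 6 of 8 were above 0, and those that moved by more than the pooled SD of their own groups were 0.58 in untreated rats at 0 h, -0.0065 at 72 h and -0.11 in AM21 rats at 0 h. Relative to all counts but those of miR-122, also added, 8 of 8 were above 0, from 0.11 to 0.91. The diets did not overlap in 1 of 8 under each of these, untreated rats at 0 h and at 6 h in turn, against 3 of 8. The cause was not tested.

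The number of miRNAs called moved more. At 6 h it was 35 and ran from 17 with only the groups compared to 58 with log10 total count as a covariate, with 56 under scaling to the 100 highest miRNAs. Without 1 rat of the 0 h groups it was 23 (CHO replicate 1), 69 (CHO replicate 2), 55 (EtOH replicate 2) and 22 (EtOH replicate 3). At 24 h in untreated rats it was 29, with 9 for only the groups compared and 19 and 18 without EtOH replicates 1 and 3. For AM21 it was 8, with 5 without EtOH 24 h AM21 replicate 1 or CHO 0 h AM21 replicate 2. For saline it was 2, with 0 or 1 in 21 of 24 fits that left out a rat and in 4 of 9 other settings. For AM21 over time it was 0, with 1 in 3 of 36 fits that left out a rat and in 1 of 8 other settings. With 42 to 184 counts of miR-210 per rat and 3 rats per group, counting error is a part of each value.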
